A study of Mus musculus with 19 samples.

Results

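The 10 imprinted genes H19, Igf2, Igf2r, Meg3, Peg3, Peg10, Mest, Cdkn1c, Phlda2 and Plagl1 were followed through 19 RNA-seq libraries of mouse embryonic stem cells and blastoids. They were taken as a fixed list by symbol, which was chosen with earlier results of these data known. All 10 were found among the 54352 gene symbols of each of 2 count tables. The cells were of the TT2 line of embryonic stem cells, grown over inactivated mouse embryonic fibroblasts, which serve as feeder cells and express several of these genes themselves. In flat (2D) culture, 2 control libraries without treatment and 2 libraries of cells treated for 6 h with 20 nM pladienolide B (PlaB), which blocks splicing by binding SF3B, a part of the spliceosome, came from cells that had been seeded 54 h earlier. Blastoids, aggregates of stem cells that take on features of the blastocyst, gave 3 libraries on each of days 1 to 5 of culture. The labels list PlaB treatment for all 15 blastoid libraries as well, so no untreated blastoid was measured and the day of culture is what differs between blastoid groups. All groups share 1 cell line, and nothing in the labels says whether replicates were grown separately, so the p-values below measure only a spread between libraries that may be technical. Polyadenylated RNA was turned into libraries by the Smart-seq2 protocol, in which whole cDNA is amplified by PCR and no molecular identifiers are added.

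Imprinted genes are expressed mainly from the allele of 1 parent, which is set by DNA methylation laid down at control regions in the egg or sperm and kept through the reprogramming that follows fertilisation. Many of them act on growth of the embryo and placenta. As a broad pattern, genes expressed from the father's allele, among them Igf2, Peg3, Peg10, Mest and Plagl1, promote growth or placental development, and genes expressed from the mother's allele, among them H19, Igf2r, Cdkn1c and Phlda2, restrain it. They lie in clusters that share a control region, and several clusters contain a long noncoding RNA (lncRNA) that takes part in silencing its neighbours. The counts used here sum both alleles, so they give the amount of RNA and say nothing about which allele it came from.

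Start sites of imprinted genes often lie in DNA rich in CG dinucleotides, the sites at which imprints are written. The tables of RefSeq sequences (GRCm38.p6) held an upstream window for 7 of the 10 genes. DNA methylation was not measured in this study. The stretches shown belong to a gene whose RNA rose during blastoid culture (Peg3), a gene whose RNA fell (Mest) and the growth factor receptor gene with the most CG dinucleotides in its window (Igf2r). Capitals mark CG. They are read 5′ to 3′ on the strand of the gene, and only the part outside annotated exons is printed.
Peg3, chr7:6730432-6730577, minus strand: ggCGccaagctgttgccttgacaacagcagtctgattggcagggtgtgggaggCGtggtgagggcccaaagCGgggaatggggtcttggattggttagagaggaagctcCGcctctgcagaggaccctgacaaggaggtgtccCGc
Mest, chr6:30737800-30738049, plus strand: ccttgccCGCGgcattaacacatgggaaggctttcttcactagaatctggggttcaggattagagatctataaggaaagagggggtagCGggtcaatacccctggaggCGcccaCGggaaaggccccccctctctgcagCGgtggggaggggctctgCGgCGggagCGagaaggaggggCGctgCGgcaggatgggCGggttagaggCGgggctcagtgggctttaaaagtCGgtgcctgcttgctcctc
Igf2r, chr17:12769707-12769956, minus strand: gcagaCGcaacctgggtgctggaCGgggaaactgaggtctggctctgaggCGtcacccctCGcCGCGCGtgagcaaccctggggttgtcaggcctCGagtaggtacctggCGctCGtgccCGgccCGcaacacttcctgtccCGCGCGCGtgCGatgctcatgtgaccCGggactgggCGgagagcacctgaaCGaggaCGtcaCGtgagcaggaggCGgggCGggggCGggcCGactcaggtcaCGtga
The letters CG occur 5 times in the 146 bases of Peg3, 14 times in the 250 bases of Mest and 27 times in the 250 bases of Igf2r. Of all 32851 RefSeq windows, 29.4% hold at least as many CG in their 250 upstream bases as this Mest window, and 8.6% as many as Igf2r. Where a gene had several windows, one with the most CG was taken. Another window of Mest holds 7, a number that 46.3% of windows reach. The full upstream window of Peg3 holds 8, a number that 43.0% of windows reach.

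The 2D libraries held 2515381 to 4118725 counts each, and the blastoid libraries 3684787 to 7607021. All 10 stem cell markers examined had counts in every library, but Pou5f1 had only 2 counts in each 2D control library. On day 5 its libraries had 8, 5 and 13 counts. The summed level of 24 fibroblast markers was 4704 to 5426 CPM (counts scaled to a common library total) in 2D control libraries and 6717 to 8837 CPM after PlaB, with no marker at 0. It was 466 to 831 CPM on day 1, 578 to 875 CPM on day 2, 278 to 694 CPM on day 3, 29.0 to 170 CPM on day 4 and 59.3 to 81.8 CPM on day 5, where 2 to 5 of the 24 markers were at 0. A few genes carried much of this sum, and not the same ones in each group. After PlaB, Lox and Acta2 had means of 2275 and 1910 CPM. On day 1 these were 31.5 and 2.65 CPM, and Dcn was at 308 CPM. The summed level of 14 trophectoderm markers, genes of the outer blastocyst layer that forms the placenta, was 335 to 511 CPM on day 1, 63.6 to 97.5 CPM on day 3, 1000 to 1097 CPM on day 4 and 1194 to 2252 CPM on day 5. Krt18 and Krt8 had the highest day 5 means of the 14, at 877 and 338 CPM. Libraries also differed in the balance of GC-rich and GC-poor genes. For this, each gene's log2 level was centred on its mean over all libraries, so the values are relative to the other libraries. The median of GC-rich genes minus that of GC-poor genes was -1.21 and -0.99 in control libraries, 0.26 and 0.09 after PlaB and 0.60 to 1.35 on day 1. It was 0.13 to 0.25 on day 2, -1.36 to -0.49 on day 3, 0.43 to 0.69 on day 4 and -0.68 to 0.28 on day 5. Mitochondrial genes took 13.49% of the counts in day 3 replicate 3 and at most 9.38% in any other library. In these bulk libraries, fewer cells of a type and less RNA per cell cannot be told apart.

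**Figure D1:**
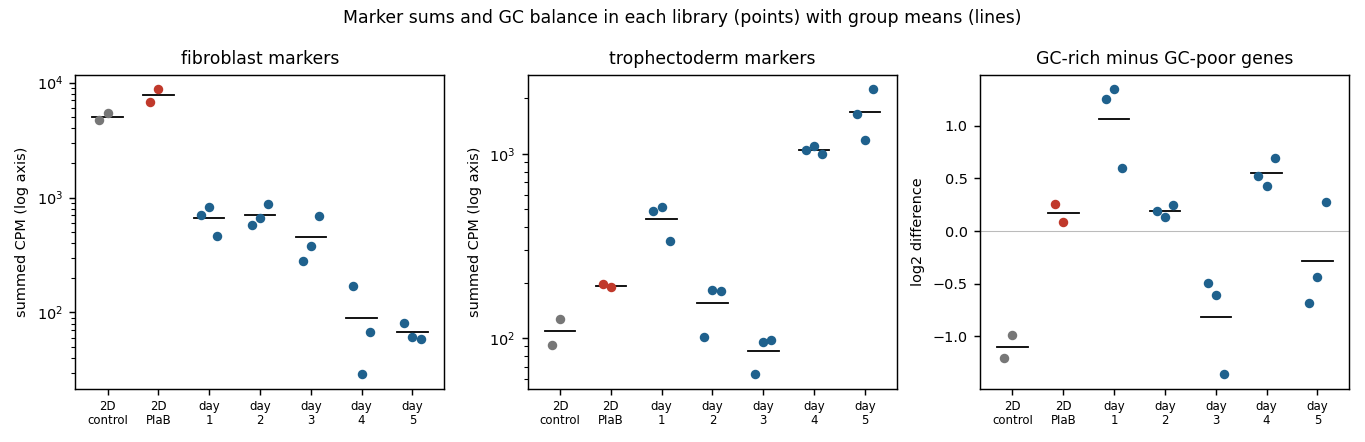
Summed CPM of 24 fibroblast markers and of 14 trophectoderm markers (log axes), and the difference between GC-rich and GC-poor genes (linear axis), for each library (points) with group means (lines). The GC difference is between medians of log2 levels, each centred on its gene's mean over all libraries. Fibroblast markers are highest in 2D culture and lowest on days 4 and 5, trophectoderm markers are highest on days 4 and 5, and the GC difference runs from -1.36 to 1.35.

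Of the 10 genes, 9 passed the low-count filter of each fit and Igf2 did not. Between blastoid day 1 and day 5 all 9 changed: 7 rose and 2 fell, at a threshold of 0.05 on p-values adjusted over all tested genes (edgeR's quasi-likelihood test). At the same threshold 51.0% of the 15121 genes tested differed between those days, 25.5% higher and 25.5% lower. Cdkn1c, Peg3, H19, Peg10, Plagl1, Meg3 and Igf2r were higher on day 5, and Mest and Phlda2 were lower. The median log2 fold change over the 9 genes was 1.81, beside -0.02 over all genes tested. Levels are given in CPM on a single scale for all 19 libraries, and overlap of libraries between days is given below for single genes. The share of all tested genes without overlap was not counted, so overlap was not counted over the members either. Over the same days 19 of the 23 fibroblast markers tested fell and none rose, and 9 of the 12 trophectoderm markers tested rose and none fell. Eomes (log2 fold change -0.67), Hand1 (0.61) and Tfap2a (0.8) did not pass, and Cdx2 and Elf5 were too low to be tested. Day 5 libraries had 1, 0 and 0 counts of Cdx2 and 4, 2 and 6 of Elf5. Of the 10 stem cell markers, Pou5f1 (-4.31), Nanog (-2.97), Sox2 (-1.04) and Tdgf1 (-0.76) fell. Klf4 (2.77) and Fgf4 (0.65) rose, and the other 4 did not pass. Of 8 tested markers of primitive endoderm, another layer of the blastocyst, 5 fell and 1 rose. The part of these shifts in cell markers in the members' changes was not tested.

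**Figure D2:**
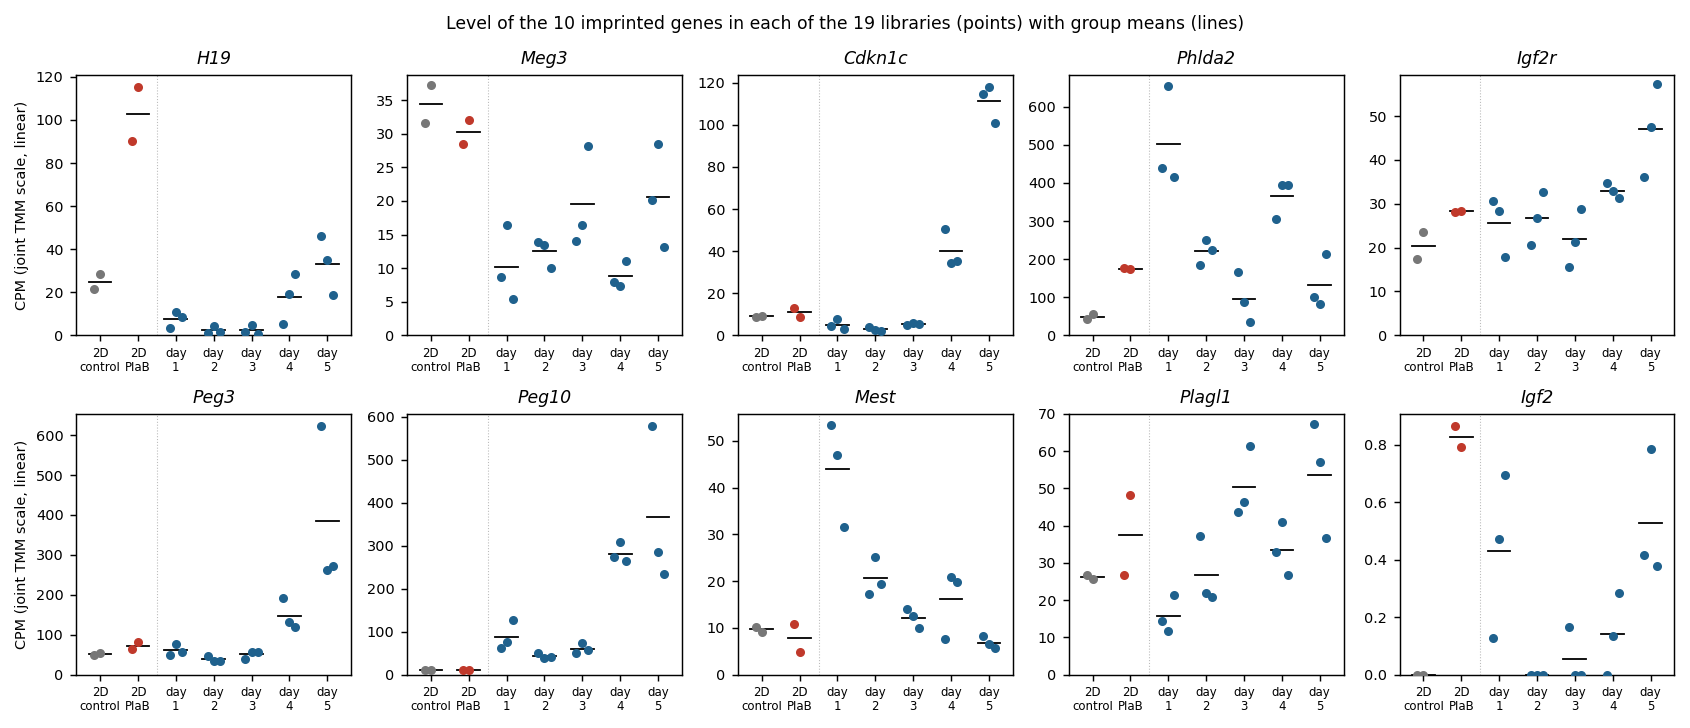
Level of each of the 10 imprinted genes in CPM (linear axes from 0, a different range for each gene) in every library (points) with the group means (lines). Cdkn1c, Peg3 and Peg10 are highest on days 4 and 5, Mest is highest on day 1, H19 is highest after PlaB in 2D culture, and Igf2 stays below 1 CPM in every library.

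Cdkn1c had the largest difference of the members between days 1 and 5. It encodes p57, an inhibitor of cyclin-dependent kinases that holds cells out of the cell cycle and is needed for trophoblast giant cells to form, and it is expressed from the mother's allele in the Kcnq1ot1 cluster (chr7:143458339-143461050, minus strand, GRCm38). Its level was 4.31, 7.76 and 3.05 CPM on day 1, 4.15, 2.36 and 2.07 CPM on day 2, and 4.79, 5.86 and 5.33 CPM the day after. It was 50.5, 34.4 and 35.2 CPM on day 4 and 115, 118 and 101 CPM on day 5. Libraries of days 4 and 5 all lay above every library of the first 3 days, and day 5 lay above day 4 without overlap. Cdkn1c rose from day 3 to day 4 by 2.89 on the log2 scale (SE 0.30, adjusted p = 1.63e-06, edgeR) and again from day 4 to day 5 by 1.51 (SE 0.27, adjusted p = 0.00039). From day 1 to day 5 the log2 fold change was 4.58 (SE 0.32, adjusted p = 1.1e-08). The longest transcript of Cdkn1c is GC-rich, at 59.4%, and with the trend of levels on GC content removed from each library the same difference was 5.74. The step from day 3 to day 4 was then 1.88 and the step to day 5 was 2.23, both still past the threshold. The step from day 2 to day 3 was 0.93 (adjusted p = 0.0511), and with the GC trend removed it was called at 1.54 (adjusted p = 0.00482).

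Phlda2 lies close to Cdkn1c in the same cluster (chr7:143501545-143503150, minus strand), and followed another course. It encodes a small protein with a pleckstrin homology domain that limits placental growth. Its level was 439, 654 and 415 CPM on day 1, 185, 250.4 and 225 CPM on day 2 and 167, 87.3 and 33.5 CPM on day 3. It was 306, 396 and 394 CPM on day 4 and 100.3, 83.1 and 213 CPM on day 5. Days 1 and 4 held the high libraries, and days 3 and 5 the low ones. From day 2 to day 3 Phlda2 fell by 1.17 on the log2 scale (SE 0.40, adjusted p = 0.0354, edgeR), from day 3 to day 4 it rose by 1.92 (SE 0.41, adjusted p = 0.00186), and from day 4 to day 5 it fell by 1.44 (SE 0.40, adjusted p = 0.0107). Between days 1 and 5 the log2 fold change was -1.87 (SE 0.40, adjusted p = 0.00074). The GC content of its longest transcript is 56.5%. Relative to the mean over all libraries, GC-rich genes stood above GC-poor ones on days 1, 2 and 4. The part of this in the levels of Phlda2 was not tested beyond the correction that follows. With the GC trend removed, the difference between days 5 and 1 was -1.12 (adjusted p = 0.00813), the rise to day 4 was 1.18 (adjusted p = 0.0168), and the fall from day 2 to day 3 was -0.70 and no longer passed (adjusted p = 0.131). That fall was also not called without day 2 replicate 2 (-1.07), day 2 replicate 3 (-1.17), day 3 replicate 2 (-1.10) or day 3 replicate 3 (-0.78), and it was -1.85 without day 3 replicate 1, whose level was the highest of its day. Without that library the rise to day 4 was 2.59. The fall from day 4 to day 5 was lost without day 5 replicate 1 (-1.27, adjusted p = 0.0623) or day 5 replicate 2 (-1.21, adjusted p = 0.0638).

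Igf2r, the third growth restrainer, changed least. It encodes the receptor that binds the growth factor IGF2 and carries it to the lysosome (chr17:12682406-12769664, minus strand). Its level was 30.5, 28.4 and 17.9 CPM on day 1, 15.7 to 32.7 CPM over days 2 and 3, 34.8, 32.9 and 31.2 CPM on day 4 and 36.1, 47.6 and 57.4 CPM on day 5. No step between neighbouring days passed the threshold, and with the GC trend removed the step from day 4 to day 5 did (0.72, adjusted p = 0.0375). Day 5 lay above day 1 without overlap, by 0.94 on the log2 scale (SE 0.27, adjusted p = 0.00581, edgeR). The call was lost with scaling by total counts only (log2 fold change 0.60, adjusted p = 0.0888) and without day 1 replicate 3 (0.68, adjusted p = 0.0519).

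Igf2, the fetal growth factor that Igf2r removes (chr7:142650766-142666816, minus strand), was close to absent. Both 2D control libraries had 0 counts, which allows up to 0.374 CPM over the group, and each PlaB library had 2 counts. Blastoid libraries had 1, 2 and 5 counts on day 1, 0 in all 3 libraries on day 2 (up to 0.15 CPM over the group), 1, 0 and 0 on day 3, and 0, 1 and 2 on day 4. Day 5 had 2, 3 and 2 counts. The annotation places 3596 of the 5723 exon bases of Igf2 inside the same-strand gene model Gm49394, and a counter that drops reads shared by 2 genes would lower the count. Gm49394 itself had 0 counts in every library. Limits of this kind cover counting error only.

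H19 is a lncRNA that shares its control region and enhancers with Igf2 and is expressed from the mother's allele (chr7:142575529-142578143, minus strand). Its level was 3.29, 10.8 and 8.32 CPM on day 1, 1.16, 4.44 and 1.33 CPM on day 2 and 1.49, 4.96 and 0.444 CPM on day 3. It was 5.41, 19.1 and 28.2 CPM on day 4 and 46.1, 34.8 and 18.8 CPM on day 5. H19 thus had its lowest levels in the middle of the culture and its highest at the end, while Igf2 stayed at a few counts. It rose between days 1 and 5 by 2.25 on the log2 scale (SE 0.65, adjusted p = 0.00944, edgeR) and between days 3 and 4 by 2.83 (SE 0.72, adjusted p = 0.00955). The call between days 3 and 4 was lost with the GC trend removed (2.11, adjusted p = 0.0749), without day 3 replicate 1 (2.58, adjusted p = 0.0574) and without day 3 replicate 3 (2.42, adjusted p = 0.0742), and the difference was 4.06 without day 3 replicate 2, the highest library of that day. The call between days 1 and 5 was lost when no low-count filter was used (2.04, adjusted p = 0.0701), and with the GC trend removed that difference was 3.02.

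Meg3 is the lncRNA of the Dlk1-Dio3 cluster that is expressed from the mother's allele (chr12:109541001-109571726, plus strand). Its level was 8.74, 16.5 and 5.41 CPM on day 1, 13.9, 13.4 and 10.1 CPM on day 2, 14.0, 16.4 and 28.2 CPM on day 3, 7.86, 7.38 and 11.1 CPM on day 4 and 20.1, 28.5 and 13.1 CPM on day 5. Day 1 and day 5 overlapped. Meg3 fell from day 3 to day 4 by 1.16 on the log2 scale (SE 0.37, adjusted p = 0.0248, edgeR) and rose from day 4 to day 5 by 1.26 (SE 0.37, adjusted p = 0.0159). From day 1 to day 5 it rose by 1.11 (SE 0.38, adjusted p = 0.0184). Each of these 3 calls was lost when single libraries were left out: the first without day 3 replicate 3, day 4 replicate 1 or day 4 replicate 2, the second without day 4 replicate 1, day 4 replicate 2 or day 5 replicate 2, and the last without day 1 replicate 1, day 1 replicate 3 or day 5 replicate 2. Scaling by total counts only also ended the second and the last (adjusted p = 0.0531 and 0.118).

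Peg3 and Peg10, both expressed from the father's allele, rose late in the culture. Peg3 encodes a large zinc finger protein that acts on growth and on maternal behaviour (chr7:6703892-6730431, minus strand). Its level was 48.4, 75.4 and 57.2 CPM on day 1, 47.1, 34.8 and 33.2 CPM on day 2, 39.0, 56.8 and 55.9 CPM on day 3, 193, 132 and 118 CPM on day 4 and 624, 262 and 271 CPM on day 5. Every library of day 4 lay above those of days 1 to 3, and every library of day 5 lay above those of day 4. Peg3 rose by 1.54 on the log2 scale from day 3 to day 4 (SE 0.31, adjusted p = 0.00114, edgeR), by 1.41 from day 4 to day 5 (SE 0.30, adjusted p = 0.0017) and by 2.74 from day 1 to day 5 (SE 0.32, adjusted p = 1.03e-06). Day 5 replicate 1 had the highest level of both Peg3 and Peg10.

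Peg10 derives from a retrotransposon and is needed for the placenta to form (chr6:4747306-4760517, plus strand). Its level was 62.1, 75.9 and 127 CPM on day 1, 50.1, 38.8 and 41.0 CPM on day 2, 51.2, 74.3 and 56.2 CPM on day 3, 273, 308 and 263 CPM on day 4 and 578, 285 and 234 CPM on day 5. Days 4 and 5 lay above all earlier days and overlapped each other. Peg10 rose from day 3 to day 4 by 2.21 on the log2 scale (SE 0.31, adjusted p = 4.47e-05, edgeR). The further difference to day 5 was 0.41 (SE 0.29) and did not pass (adjusted p = 0.316). From day 1 to day 5 it rose by 2.11 (SE 0.31, adjusted p = 1.34e-05). The trophectoderm markers rose between the same days, with 9 of the 12 tested higher on day 4 than on day 3, and the part of that shift was not tested.

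Mest went the other way. It encodes a membrane protein of the alpha/beta hydrolase family and is a growth gene expressed from the father's allele (chr6:30723547-30748465, plus strand). Its level was 53.3, 47.0 and 31.5 CPM on day 1, 17.2, 25.2 and 19.3 CPM on day 2 and 14.0, 12.5 and 9.99 CPM on day 3. It was 7.60, 20.9 and 19.8 CPM on day 4 and 8.30, 6.53 and 5.68 CPM on day 5. Day 1 lay above every other day without overlap. Mest fell from day 1 to day 5 by 2.62 on the log2 scale (SE 0.34, adjusted p = 3.76e-06, edgeR), and its first step, from day 1 to day 2, was a fall by 1.07 (SE 0.31, adjusted p = 0.0375). It fell again from day 4 to day 5, by 1.20 (SE 0.34, adjusted p = 0.0114), a call that was lost without day 4 replicate 2 (-0.99, adjusted p = 0.06) or day 4 replicate 3 (-1.04, adjusted p = 0.0526). Its exons share 912 bases with the opposite-strand gene Copg2. Reads from these bases cannot be assigned to 1 of the 2 genes from the sources used here. Copg2 was higher on day 5 than on day 1 by 0.72 (SE 0.24, adjusted p = 0.0156). That call of Copg2 was lost with the GC trend removed (0.40), with scaling by total counts only (0.39), with no low-count filter and without day 1 replicate 1 (0.48), day 1 replicate 2 (0.65) or day 5 replicate 1 (0.57).

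Plagl1, a zinc finger transcription factor that acts on the cell cycle and on other imprinted genes (chr10:13060504-13131694, plus strand), was at 14.4, 11.8 and 21.4 CPM on day 1, 37.2, 21.9 and 20.9 CPM on day 2, 43.6, 46.4 and 61.3 CPM on day 3, 33.0, 41.1 and 26.7 CPM on day 4 and 67.3, 57.0 and 36.8 CPM on day 5. It was lowest on day 1 and did not follow the late step of Peg3 and Peg10. It rose from day 1 to day 5 by 1.81 on the log2 scale (SE 0.30, adjusted p = 5.16e-05, edgeR) and from day 2 to day 3 by 0.95 (SE 0.29, adjusted p = 0.0213). The call between days 2 and 3 was lost without day 2 replicate 2, day 2 replicate 3 or day 3 replicate 3, at adjusted p-values of 0.0672 to 0.116.

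The members were then counted by step. From day 1 to day 2, 2 of the 9 genes fell (Mest and Peg10) and none rose, against 6.96% of all genes that differed, 5.27% lower and 1.69% higher. Both of these calls rested on few libraries, since leaving out any of 5 of the 6 libraries ended the call of Mest, and likewise of Peg10. From day 2 to day 3, 1 gene rose (Plagl1) and 1 fell (Phlda2), against 25.6% of all genes that differed, 12.0% higher and 13.5% lower. From day 3 to day 4, 5 rose (Cdkn1c, H19, Peg10, Phlda2 and Peg3) and 1 fell (Meg3), against 27.9% of all genes, 15.6% higher and 12.3% lower, with a median log2 fold change of 1.54 beside -0.04 over all genes. From day 4 to day 5, 3 rose (Cdkn1c, Peg3 and Meg3) and 2 fell (Mest and Phlda2), against 28.6% of all genes, 14.1% higher and 14.5% lower. The last 2 steps thus had 6 and 5 members called, and with the GC trend removed 5 and 6. Of the 23 fibroblast markers tested, 16 fell and none rose between days 3 and 4.

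**Figure D3:**
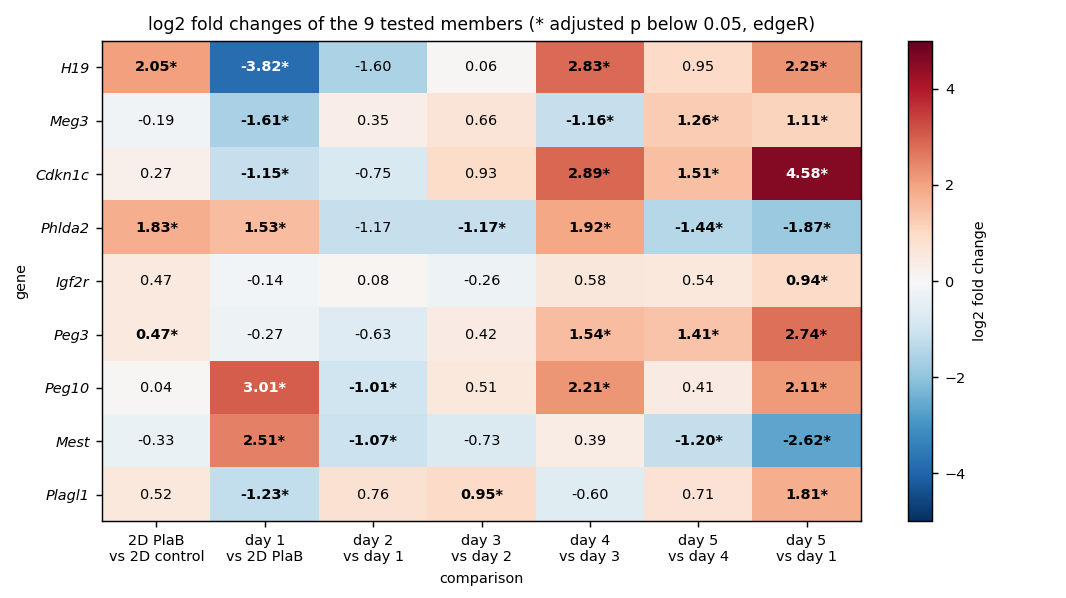
Log2 fold changes of the 9 tested imprinted genes (rows) in the 7 comparisons (columns), printed in each cell and coloured from blue (lower in the first group named) to red (higher), with an asterisk for an adjusted p below 0.05 (edgeR). The column of day 4 against day 3 holds 5 rises, and day 5 against day 1 holds 7 rises and 2 falls.

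In 2D culture, 6 h of PlaB went with more H19, Phlda2 and Peg3 RNA, and no member fell. The other 6 tested genes did not pass. At the same threshold 51.7% of the 11183 genes tested differed between PlaB and control, 25.9% higher and 25.8% lower. The median log2 fold change was 0.47 over the 9 members and 0 over all genes. H19 was at 21.4 and 28.3 CPM in control libraries and at 90.3 and 115 CPM after PlaB, higher on the log2 scale by 2.05 (SE 0.20, adjusted p = 1.38e-10, edgeR). Phlda2 was at 42.6 and 55.3 CPM in control libraries and at 175 and 173 CPM after PlaB, higher on the log2 scale by 1.83 (SE 0.17, adjusted p = 1.71e-11). For both genes the PlaB libraries lay far above the control libraries.

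Both genes are GC-rich, and GC-rich genes as a whole stood higher in the PlaB libraries than in the control libraries. With the GC trend removed, H19 was higher by 1.17 (adjusted p = 8.22e-06, edgeR) and Phlda2 by 0.86 (adjusted p = 2.35e-05), so both calls held at less than the first size. The fibroblast markers moved in the same direction: 16 of the 23 tested rose after PlaB and 1 fell, and 12 rose and 4 fell with the GC trend removed. H19 is among the genes that fibroblasts of the embryo express, and the part of feeder RNA in its rise was not tested.

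Peg3 was at 50.0 and 54.8 CPM in control libraries and at 63.5 and 81.4 CPM after PlaB, and rose by 0.47 on the log2 scale (SE 0.19, adjusted p = 0.036, edgeR). This call was lost with scaling by total counts only (adjusted p = 0.0591), with no low-count filter (0.117), with DESeq2 (0.124) and without control replicate 1 (0.231), control replicate 2 (0.1) or PlaB replicate 2 (0.298). Plagl1 was at 26.8 and 25.6 CPM in control libraries and 26.8 and 48.2 CPM after PlaB (log2 fold change 0.52, SE 0.25, adjusted p = 0.0839). Without PlaB replicate 1 it was called at 0.87 (adjusted p = 0.00444), and with the GC trend removed at 0.70 (adjusted p = 0.0203). Cdkn1c was at 8.67 and 9.17 CPM in control libraries and 12.96 and 8.69 CPM after PlaB (log2 fold change 0.27, adjusted p = 0.59), and with the GC trend removed it was called lower, at -1.04 (adjusted p = 0.0281).

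Igf2r, Meg3, Mest and Peg10 did not pass in the comparison of PlaB with control. Igf2r was at 17.3 and 23.5 CPM in control libraries and 28.1 and 28.4 CPM after PlaB, a log2 difference of 0.47 (SE 0.27). Meg3 was at 31.6 and 37.2 CPM in control libraries and 28.5 and 32.0 CPM after PlaB, a difference of -0.19 (SE 0.24). Mest was at 10.2 and 9.17 CPM in control libraries and 10.8 and 4.74 CPM after PlaB, a difference of -0.33 (SE 0.43). Peg10 was at 10.2 and 11.1 CPM in control libraries and 11.2 and 10.7 CPM after PlaB, a difference of 0.04 (SE 0.37) that turned below 0 with scaling by total counts only or without control replicate 1. The control and PlaB libraries overlapped for Meg3, Mest and Peg10 and did not overlap for Igf2r.

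**Figure D4:**
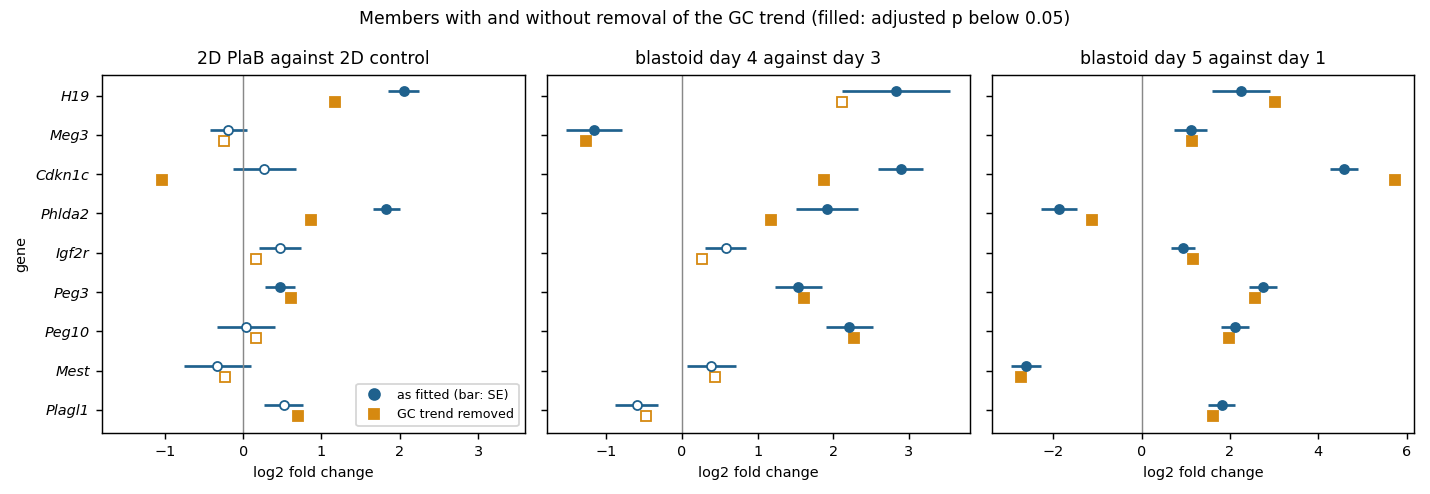
Log2 fold change (horizontal axis) of the 9 tested genes (rows) as fitted (circles, bars showing 1 SE) and with the trend of levels on GC content removed (squares) in 3 comparisons, filled where the adjusted p was below 0.05. After PlaB, Cdkn1c moves from 0.27 to -1.04 and Phlda2 from 1.83 to 0.86, and between days 1 and 5 Cdkn1c moves from 4.58 to 5.74.

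Blastoid day 1 was compared with PlaB-treated 2D cells, since both carry the same treatment label. They differ in culture and come from separate count tables, so these cannot be told apart, and the sources used here do not say when PlaB was given relative to aggregation. Of the 9 genes, 3 were higher on day 1 and 4 lower, against 38.9% of the 16304 genes tested that differed, 21.9% higher and 17.0% lower. Peg10 (log2 fold change 3.01, SE 0.38), Mest (2.51, SE 0.42) and Phlda2 (1.53, SE 0.46) were higher. H19 (-3.82, SE 0.69), Meg3 (-1.61, SE 0.38), Plagl1 (-1.23, SE 0.33) and Cdkn1c (-1.15, SE 0.36) were lower. The adjusted p-values in edgeR were 1.43e-06 for Peg10, 4.97e-05 for Mest and 0.000475 for H19. Igf2r (-0.14) and Peg3 (-0.27) did not pass, and both turned above 0 with scaling by total counts only. Between the same groups 20 of the 23 fibroblast markers tested were lower on day 1 and none was higher, which was not tested as a part of the members' differences. The difference of Mest was 3.24 without PlaB replicate 1. The call of Phlda2 was lost with the GC trend removed (0.90, adjusted p = 0.0531), without PlaB replicate 1 (1.58, adjusted p = 0.0822) and without PlaB replicate 2 (1.55, adjusted p = 0.0914). The call of Plagl1 was lost without PlaB replicate 2, where its difference was -0.71. That of Cdkn1c was lost without PlaB replicate 1 (-0.80), without day 1 replicate 3 (-0.89) and with scaling by total counts only (-0.85), and with the GC trend removed its difference was -2.01.

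The order of the levels across the 7 groups differed from gene to gene. H19 was highest in PlaB-treated 2D cells (mean 103 CPM), then on day 5 (33.2 ± 13.7 CPM, SD, n = 3) and in 2D control cells (24.9 CPM), and the last 2 overlapped. Meg3 was highest in 2D control (34.4 CPM) and PlaB (30.3 CPM) cells, which overlapped, and then on day 5 (20.6 ± 7.72 CPM, SD, n = 3). Cdkn1c was highest on day 5 (111 ± 9.16 CPM, SD, n = 3) and then on day 4 (40.04 ± 9.09 CPM, SD, n = 3), without overlap. Peg10 was lowest in both 2D groups, at means of 10.6 and 11.0 CPM, which overlapped.

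Levels of different genes were compared per kilobase of exon. On day 1, Phlda2 had the highest mean, 448 CPM per kb, followed by Peg10 at 13.3 and Mest at 11.1 CPM per kb. On day 5, Phlda2 was at 118, Peg10 at 54.8, Cdkn1c at 54.5, Peg3 at 28.9 and H19 at 13.5 CPM per kb, and Mest was at 1.73 CPM per kb. Cdkn1c had been at 2.47 CPM per kb on day 1. Meg3, with 18.09 kb of exons over all its annotated transcripts, was at 1.14 CPM per kb on day 5. Exon length covers the bases of every annotated transcript of a gene, which can lower its level per kb.

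Neighbours in the imprinted clusters were then read beside the members, from a list of 28 genes of which 21 could be tested in blastoids. Between days 1 and 5, 8 of them rose, 4 fell and 9 did not pass, with a median log2 fold change of 0.45. Of all genes tested 25.5% rose and 25.5% fell. In the Kcnq1ot1 cluster, the lncRNA Kcnq1ot1, which is made from the father's allele and silences Cdkn1c and Phlda2 there, was at 123, 110.2 and 167 CPM on day 1, 77.6, 149 and 138 CPM on day 4 and 892, 552 and 372 CPM on day 5. It rose by 2.24 on the log2 scale from day 1 to day 5 (SE 0.38, adjusted p = 7.37e-05, edgeR) and by 2.35 from day 4 to day 5 (SE 0.38, adjusted p = 0.000203). Kcnq1ot1 and Cdkn1c were thus both highest on day 5. The annotation places Kcnq1ot1 (chr7:143203458-143296549, minus strand) inside Kcnq1 on the other strand (chr7:143106362-143427042). Reads from introns of Kcnq1 cannot be told from Kcnq1ot1 in these counts, and their part in the rise was not tested. Tssc4 and Slc22a18 in the same cluster fell between days 1 and 5, by 2.00 and 1.71. With the GC trend removed these were -0.96 and -0.87, and the second no longer passed (adjusted p = 0.176). Without day 5 replicate 3 the difference of Tssc4 was -3.08. After PlaB in 2D culture Kcnq1ot1 was lower by 0.67 (SE 0.18, adjusted p = 0.00186), a call that the GC correction ended (-0.17, adjusted p = 0.443).

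In the Igf2r cluster, Airn, a lncRNA that starts inside Igf2r on the other strand and silences it on the father's allele, was at 4.69, 4.94 and 3.61 CPM on day 1, 8.12, 11.8 and 8.13 CPM on day 4 and 46.7, 17.8 and 25.8 CPM on day 5. It rose from day 1 to day 5 by 2.84 on the log2 scale (SE 0.37, adjusted p = 4.51e-06, edgeR), beside 0.94 for Igf2r. Their annotated exons share no bases. Reads from introns of one cannot be told from exons of the other in these counts, and the strand setting of the counting is not given in the sources used here.

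Next to Meg3, the lncRNA Rian was at 14.6, 20.0 and 16.8 CPM on day 1, 45.6, 63.2 and 72.8 CPM on day 3, 21.5, 28.2 and 34.8 CPM on day 4 and 55.6, 70.6 and 35.8 CPM on day 5. Rian rose from day 2 to day 3 (log2 fold change 1.14, adjusted p = 0.00531, edgeR), fell to day 4 (-1.12, adjusted p = 0.00506) and rose to day 5 (0.97, adjusted p = 0.011). With the GC trend removed none of these 3 steps passed for Rian (0.41, -0.28 and 0.56), while its difference between days 5 and 1 was 1.73 as fitted and 1.02 with the correction, both past the threshold. The last step was also lost with scaling by total counts only (0.74) and without day 4 replicate 1 (0.79) or day 5 replicate 2 (0.71). Meg3 had the same signs in the 3 steps and passed in the last 2. The protein-coding genes of the cluster expressed from the father's allele stayed low: Dlk1 had 52 counts over the 3 libraries of day 1 and 0 on day 5.

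Next to Peg3, Usp29 and Zim1 rose from day 1 to day 5, by 2.31 (SE 0.52) and 2.34 (SE 0.69) on the log2 scale, and Zfp264 fell by 2.53 (SE 0.87), all at group means below 6 CPM. The call of Zim1 was lost without day 1 replicate 1 (1.80), and that of Zfp264 without day 5 replicate 1 (-1.95) or day 5 replicate 3 (-2.42). Without day 5 replicate 2 the difference of Zfp264 was -3.57. Next to Peg10, Sgce, which shares a start region with it, was at 19.6, 24.9 and 29.7 CPM on day 1 and 89.9, 58.0 and 67.6 CPM on day 5. Sgce rose by 1.60 (SE 0.26, adjusted p = 4.37e-05, edgeR), and by 1.04 with the GC trend removed. Tfpi2, on the far side of Sgce from Peg10, fell by 5.24 (SE 0.93), from 5.07, 5.88 and 16.6 CPM on day 1 to 1 count in each library of day 5. Without day 1 replicate 3 the difference was -4.52. In 2D culture Tfpi2 was at 319 to 427 CPM. The summed fibroblast markers were also highest there, and 19 of the 23 tested fell between days 1 and 5. The part of feeder RNA in the fall of Tfpi2 was not tested. Members and neighbours of 1 cluster therefore did not all share a direction.

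**Figure D5:**
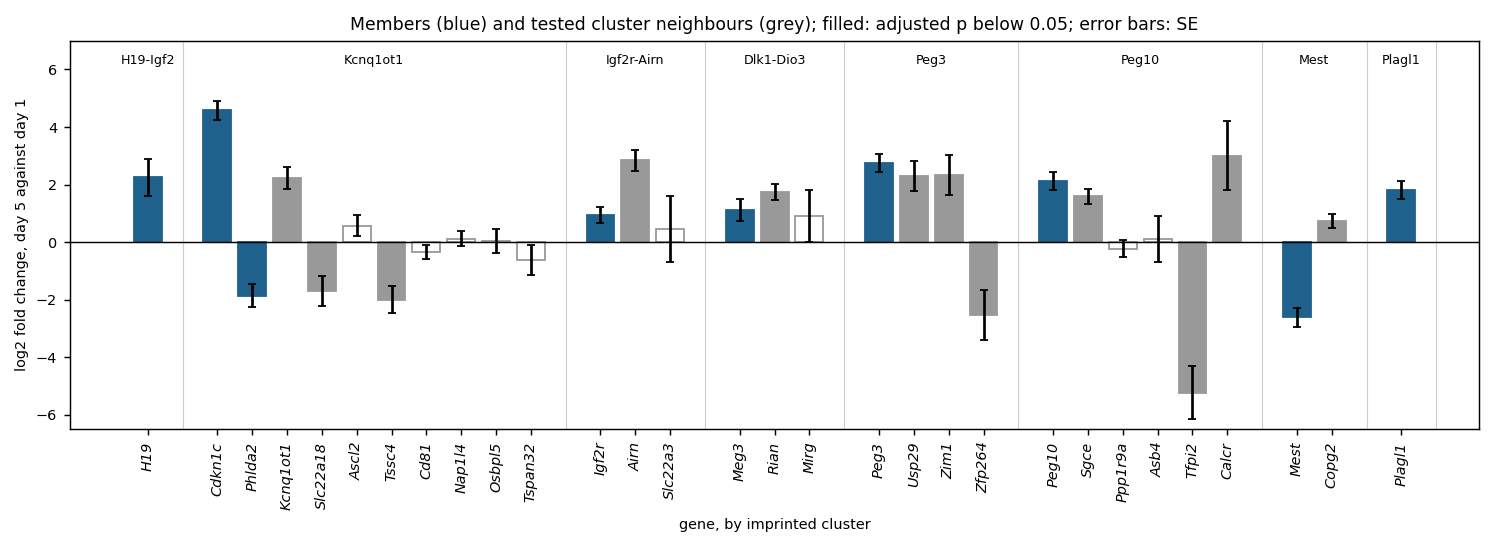
Log2 fold change of day 5 against day 1 (bars from 0, error bars showing 1 SE) for the tested members (blue) and their tested neighbours (grey), grouped by imprinted cluster, with open bars where the adjusted p was 0.05 or more. Airn (2.84), Kcnq1ot1 (2.24) and Sgce (1.60) rise in the clusters of the rising members Igf2r, Cdkn1c and Peg10, while Phlda2 (-1.87) falls in the cluster of Kcnq1ot1 and Tfpi2 (-5.24) falls in the cluster of Peg10 (2.11).

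Genes outside the set with the most similar course were sought over the 15 blastoid libraries, as the smallest root mean square difference between mean-centred log2 levels, among 8448 genes with at least 10 CPM on some day. Peg3 and Peg10 were the nearest members to each other (0.446), and Peg3 was the third nearest gene of all to Peg10. The nearest to Peg3 were Fgfr2 (0.322), a fibroblast growth factor receptor, Slc2a1 (0.360), a glucose transporter, and Slc40a1 (0.365), an iron exporter. Slc40a1 was also the nearest gene to Peg10 (0.411), followed by Pcgf5 (0.445). The nearest to Cdkn1c were Rsad2 (0.560), Nxf7 (0.561) and Mbnl3 (0.569). The nearest to Phlda2 were Arl2 (0.275), Aprt (0.281) and Oaz1 (0.285), and to Mest Cops7a (0.353), Dus1l (0.369) and Gltp (0.380). For H19, the differences were larger, with Arid3a at 0.840, Gadd45b at 0.850 and Fabp3 at 0.853. Igf2r was nearest to Aplp2 (0.225), Abhd2 (0.246) and Ccnl2 (0.247), Meg3 to Mfsd8 (0.332), Eaf1 (0.345) and R3hdm1 (0.353), and Plagl1 to Ccni (0.193), Ppp3cb (0.211) and Dhx15 (0.223). These distances describe 15 libraries that share a day structure and a GC difference, and they carry no test.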

How the data were processed

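The authors deposited 2 tables of unnormalized read counts, with 1 row for each gene symbol: 1 table for the 4 libraries of 2D culture and 1 for the 15 blastoid libraries. Per the submitters' processing notes, STAR 2.7.10b, HTSeq 0.13.5 and the mouse genome mm10 were used. The annotation release, strand setting and treatment of reads shared by genes: not given in the sources used here. Groups were taken from the labels. Coordinates, exon length and the GC content of the longest transcript came from GENCODE M21 (GRCm38), in which 53669 of 54352 symbols matched 1 gene. Members and lists were chosen with earlier results of these data known.

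Counts were tested with edgeR 4.0.16 in R 4.3.3 (TMM scaling, filterByExpr at 10 counts with a total of at least 15, robust quasi-likelihood F-test, Benjamini-Hochberg adjustment over all tested genes). Every adjusted p given for a gene is edgeR's unless DESeq2 1.42.0 is named. The 2D libraries were fitted together (BCV 0.127), the blastoid libraries together (0.258), and day 1 against 2D PlaB in a joint fit of all 19 (0.25). Standard errors are the log2 fold change divided by the square root of F. CPM values were TMM-scaled over all 19 libraries and fold changes come from the fit of each comparison, so the 2 can differ slightly. For the GC difference, each gene's log2 level was centred on its mean over all 19 libraries. The median for genes with under 42% GC was subtracted from that for genes with over 54%. The GC correction removed a loess trend (span 0.5) of log2 levels on gene GC from each library. All 10 members were named in each comparison, and from other lists up to 3 genes per direction with the smallest adjusted p. Neighbours outside this rule (Kcnq1ot1 on day 5 against day 1, Usp29, Zim1, Zfp264, Copg2 and Dlk1, and Rian on day 5 against day 4) were picked after their values were seen. Replicates share only a number: the correlation of same-numbered deviations was -0.02 in 2D and -0.26 to 0.18 in blastoids, so libraries were not paired. Replicate pairs of the same group differed by more than sampling noise. The pipeline was tested on simulated counts. Alternatives were RLE size factors, total counts only, no low-count filter, DESeq2, a replicate block, the GC correction, only the libraries compared, and leaving out each library.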

Additional observations from a re-analysis of the deposited data

How the results depend on the processing

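The numbers of members called between PlaB and control (3) and between days 5 and 1 (9) were within 1.5 times of these in all alternatives run, except that 5 members were called after PlaB with the GC trend removed. With that correction 23 of the 108 listed genes tested after PlaB changed sign, 11 of them called before or after it. These included Cdkn1c (to -1.04), Zdbf2 (0.04), Dnmt1 (-0.01), Igfbp2 (-0.18) and Tfpi2 (0.31), and the fibroblast markers Col1a2 (-0.21) and Col5a1 (-0.39). Between days 3 and 4 Igfbp2 (-0.14) and Trim28 (-0.92) changed sign among such genes, and between days 1 and 5 Dnmt1 (0.50). Of the members, Cdkn1c also did between days 1 and 2 (-0.75 to 0.09) and Igf2r between days 2 and 3 (-0.26 to 0.03), with no call either way. From day 1 to day 2, with 2 members and 1052 genes called, a replicate block left 0 members, the GC correction 594 genes, and only the libraries compared 2036 genes. Leaving out day 3 replicate 3, chosen after seeing its mitochondrial share, gave 1950 genes there, 5361 between days 4 and 5 and 7071 between day 1 and PlaB. Leaving out single libraries of these 2 days gave 0 to 1 members and 426 to 1490 genes. From day 2 to day 3 (2 members, 3866 genes) the block left 1 member, and only the libraries compared gave 1 member and 2479 genes. Leaving out single libraries gave 0 to 3 members and 1883 to 4669 genes. From day 3 to day 4 (4224 genes) only the libraries compared gave 2697, and leaving out single libraries 2549 to 4591. From day 4 to day 5 (5 members, 4321 genes) leaving out single libraries gave 3 to 6 members and 2876 to 4367 genes, and for day 1 against PlaB (6337 genes) 3811 to 5966.

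The replicate block also ended the call of Peg3 after PlaB (0.46, adjusted p = 0.0501, edgeR), of Mest (0.0566) and Peg10 (0.0756) between days 1 and 2, and of Phlda2 between days 2 and 3 (0.0596). It changed no other member's call. With 1 library of a 2D group left out, the lone one remaining is assumed to vary as much as the libraries of other groups. Scaling by total counts only lowered the share of calls that were higher from 24.2% to 10.2% (day 2 against 1), from 49.4% to 31.2% (day 5 against 4) and from 50.1% to 33.8% (day 5 against 1). It raised that share from 55.9% to 68.9% (day 4 against 3) and from 56.3% to 71.1% (day 1 against PlaB). It shifted the median of all genes to -0.35 between days 5 and 1, to -0.23 between days 5 and 4, to -0.17 between days 2 and 1 and to 0.43 between day 1 and PlaB. The GC correction moved the share between days 1 and 2 to 35%. Depth limits Igf2, H19 on days 2 and 3 and Cdkn1c up to day 3.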

Other observations

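Other imprinted genes, from a list of 25 outside the 10 described, also changed in both directions. Between blastoid days 1 and 5, 7 of the 17 that could be tested rose and 5 fell, beside 25.5% of all genes in each direction. Sfmbt2, a Polycomb-type gene needed by the placenta, rose from 96.1 to 574 CPM (log2 fold change 2.64, SE 0.34, adjusted p = 3.07e-06, edgeR). Zrsr1 rose by 2.19 and Grb10, an adaptor that restrains signalling of insulin and IGF receptors, by 1.35. Snrpn, a splicing protein gene of the Prader-Willi region, fell by 2.7 (SE 0.29), Ndn by 2.17 and H13 by 1.59. After PlaB in 2D culture 7 of 18 rose and 4 fell, beside 25.9% of all genes higher and 25.8% lower. Snrpn was at 10.7 and 12.95 CPM in control libraries and at 116 and 110.2 CPM after PlaB (log2 fold change 3.25, SE 0.21, adjusted p = 8.14e-15). Mcts2 and H13, a pair of genes of which the first lies inside the second on the same strand, rose by 1.68 and 1.55. Reads of unspliced H13 RNA from the bases of Mcts2 cannot be told from Mcts2 in these counts. Their part in the rise of Mcts2 was not tested. Sfmbt2, Ube3a and Zdbf2 fell by 1.93, 1.00 and 0.39. With the GC trend removed H13 (0.66) and Zdbf2 (0.04) no longer passed, and Ube3a was at -0.41. The fall of Zdbf2 was also lost with DESeq2 and without control replicate 1 or PlaB replicate 2.

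Among 12 genes of DNA methylation and imprint maintenance, 5 fell between days 1 and 5 and none rose, beside 25.5% of all genes in each direction. After removal of the GC trend 3 fell and 1 rose: Dnmt3b (-0.26) and Uhrf1 (-0.06) no longer passed, and Dnmt1 was called higher (0.50, adjusted p = 0.0274). Zfp57, which binds imprinted control regions and keeps them methylated, had the largest difference. It was at 25.2 and 22.4 CPM in control libraries, 5.18 and 6.32 CPM after PlaB, 89.6, 87.9 and 65.6 CPM on day 1, 46.7, 37.7 and 28.9 CPM on day 3 and 5.40, 9.41 and 6.25 CPM on day 5. Its log2 fold change was -2.04 after PlaB (SE 0.36, adjusted p = 1.03e-05, edgeR) and -3.47 between days 5 and 1 (SE 0.29, adjusted p = 3.13e-08). Tet1 and Tet2, which oxidise methylated cytosine, fell by 1.11 and 0.95 between days 1 and 5. Among 12 tested genes of insulin-like growth factor signalling, 5 rose and 3 fell between these days. Irs2 (2.88), Igf1r (2.12) and Insr (2.10), which carry the signal inside and at the surface of the cell, rose, while the secreted binding proteins Igfbp7 (-5.48), Igfbp6 (-2.89) and Igfbp2 (-1.38) fell. With the GC trend removed the differences were 3.71 for Irs2, -4.43 for Igfbp7, -1.77 for Igfbp6 and 0.00 for Igfbp2. Without day 5 replicate 3 that of Igfbp6 was -4.11. Igfbp7 was at 65.2 CPM in control cells and 304 CPM after PlaB (log2 fold change 2.22, SE 0.15, and 0.98 with the GC trend removed), where the fibroblast markers were also highest.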
